A study of Mus musculus with 12 samples.

Results

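The Slc22a genes described here encode membrane carriers of organic anions, organic cations and carnitine in the liver of adult female mice. A probe set was taken when the platform annotation listed Slc22a5, Slc22a7, Slc22a18, Slc22a23, Slc22a26, Slc22a27, Slc22a28, Slc22a29 or Slc22a30 as its symbol, alone or with another Slc22a gene. Of these 9 genes, 8 had a probe set, and together they had 12 of the 29 Slc22a probe sets and of the 45101 probe sets on the array. Expression of Slc22a28 was not analysed here. Slc22a5, Slc22a18 and Slc22a26 had 2 probe sets each, and 1 probe set listed both Slc22a30 and Slc22a29.

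All mice were adult females of the B6.129 background, and each of the 12 arrays held total RNA from 1 liver sample. The aERKO mice were Esr1-/-, without a working copy of the gene of estrogen receptor alpha in any tissue, and the WT mice were Esr1+/+. For 2 weeks they were fed either a normal diet (NIH-31) or a high-fat diet with 60 kcal% fat. This gave 4 groups of 3 samples: aERKO on normal diet, WT on normal diet, aERKO on high-fat diet and WT on high-fat diet. The disruption is not limited to hepatocytes, so a difference in liver need not arise there. Nothing in the labels states whether replicate samples are different animals. The p-values here therefore reflect the variation among the samples at hand, part or all of which could be technical. In whole liver, fewer cells of a type and less RNA per cell cannot be told apart.

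As background, SLC22 proteins sit in the plasma membrane and exchange or co-transport small charged molecules, among them drugs, bile salts, urate, prostaglandins, steroid sulfates and carnitine. Hepatocytes use them on the blood side to take up compounds that are then metabolised or passed into bile. A row of closely related organic anion transporter genes on mouse chromosome 19 is particular to rodents. Several genes of that row are known to be female-biased in mouse liver, where the sex-dependent rhythm of growth hormone release acts through Stat5b and where Cux2 is a female-biased repressor. In the RefSeq gene table the order along the chromosome is Slc22a19, Slc22a26, Slc22a27, Slc22a28, Slc22a29, Slc22a30, Slc22a8 and Slc22a6, with pseudogenes in between.

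The start-site regions of 3 genes of that row are printed because these genes lie close together and their measured genotype differences were unlike. Each runs from 250 bases before to 50 bases after the annotated start, 5′ to 3′, from RefSeq (GRCm38.p6), with 1 start per gene. The annotated Slc22a29 gene extends 34475 bases further upstream of the start used, so its window need not be that of its outermost start, whereas the annotated Slc22a26 gene begins at the start used and the Slc22a30 gene begins 6 bases before it. Capitals in Slc22a26 mark a match to TTCNNNGAA, the core that STAT5 proteins bind, and capitals in Slc22a29 and Slc22a30 mark the longest exact run that the promoters of those genes share.
Slc22a26, chr19:7802618-7802917, minus strand: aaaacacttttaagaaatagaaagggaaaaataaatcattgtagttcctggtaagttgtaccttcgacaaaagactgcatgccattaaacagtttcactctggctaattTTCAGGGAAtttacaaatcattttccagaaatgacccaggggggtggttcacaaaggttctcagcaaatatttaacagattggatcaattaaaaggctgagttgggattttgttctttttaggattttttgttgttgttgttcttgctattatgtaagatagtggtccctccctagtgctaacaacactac
Slc22a29, chr19:8218851-8219150, minus strand: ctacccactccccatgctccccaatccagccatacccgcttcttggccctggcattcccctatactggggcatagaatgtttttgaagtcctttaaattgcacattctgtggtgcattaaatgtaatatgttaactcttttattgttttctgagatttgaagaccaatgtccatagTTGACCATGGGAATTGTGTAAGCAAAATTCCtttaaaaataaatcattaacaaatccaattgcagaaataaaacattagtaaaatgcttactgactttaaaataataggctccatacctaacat
Slc22a30, chr19:8405056-8405355, minus strand: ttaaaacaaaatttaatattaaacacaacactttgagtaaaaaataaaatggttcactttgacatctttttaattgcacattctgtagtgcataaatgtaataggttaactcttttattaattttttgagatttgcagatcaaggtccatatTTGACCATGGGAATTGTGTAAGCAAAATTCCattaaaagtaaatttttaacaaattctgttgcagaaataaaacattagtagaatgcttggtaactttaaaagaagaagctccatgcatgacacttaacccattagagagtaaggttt
The shared run of Slc22a29 and Slc22a30 was 31 bases long, and it began 74 bases before the start in Slc22a29 and 98 bases before it in Slc22a30. A local alignment of these promoters held 197 identical bases in 233 columns (84.5%). The Slc22a28 promoter was closer still to that of Slc22a30, with 288 identical bases in 294 columns (98.0%). The Slc22a26 and Slc22a27 promoters aligned with each other and with the other members of the row over at most 32 columns. The annotated Slc22a27 gene extends 490 bases further upstream of the start used, so its window too need not be that of its outermost start. TTCNNNGAA, which reads the same on both strands, was present in 1 of the 8 member promoters matched (all but Slc22a7), that of Slc22a26, where it began 141 bases before the start. Of 32851 mouse promoters of the same length, 8.30% held it. ATCGAT, a core sequence bound by Cux2 and Hnf6 that is also its own reverse complement, was in 0 of the 8 promoters and in 0.925% of all. Neither motif overlaps the other. A match is only a run of letters, and its absence from these windows says nothing about binding.

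The arrays had been scaled by the submitters to a common level, so that the mean signal without the extreme 2% at each end was 500 on every array. As a check of the labels, an Esr1 probe set (1460591_at) averaged 623 ± 51.2 in aERKO and 2777 ± 1026 in WT on normal diet, and 802 ± 121 in aERKO and 3343 ± 291 in WT on high-fat diet (SD, n = 3 each). All 7 hepatocyte markers with a probe set exceeded the array median on all 12 arrays. Of 7 kidney tubule markers, 0 did so on all arrays and 3 were below the median on all of them. Pancreatic acinar markers stood apart on 4 arrays, with mean log2 values of 13.6 in aERKO normal 1, 13.9 in WT normal 2, 10.2 in WT high-fat 2 and 12.7 in WT high-fat 3, against 5.79 to 6.83 on the others. Skeletal muscle markers reached 10.7 in aERKO normal 1, 7.28 in aERKO normal 2 and 8.91 in aERKO high-fat 2, against 5.59 to 7.01 on the others. Member results are given with and without these arrays where a call changed.

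All 12 member probe sets passed the filter on low values, which kept 25412 probe sets with a signal above the array median on 3 or more arrays. Differences below are on the scale of log2(signal + 16), with the standard error of a limma model over all 25412 probe sets, and a probe set was called at a Benjamini-Hochberg adjusted p under 0.05. On normal diet, 5 of the 12 member probe sets were called lower in aERKO and 0 higher, whereas 0.346% of all probe sets were called lower and 0.331% higher. On high-fat diet the same 5 probe sets were called lower and 0 higher, with 0.559% of all called lower and 0.728% higher. All 5 were listed for Slc22a26, Slc22a27 or Slc22a29, and 1 of them also for Slc22a30. Some of the 5 have the same source sequence, so they are not 5 independent measurements. The members were also chosen with earlier results of these data known. The median difference over the 12 was -0.47 on normal diet and -0.32 on high-fat diet, against -0.05 over all probe sets on each diet.

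**Figure D1:**
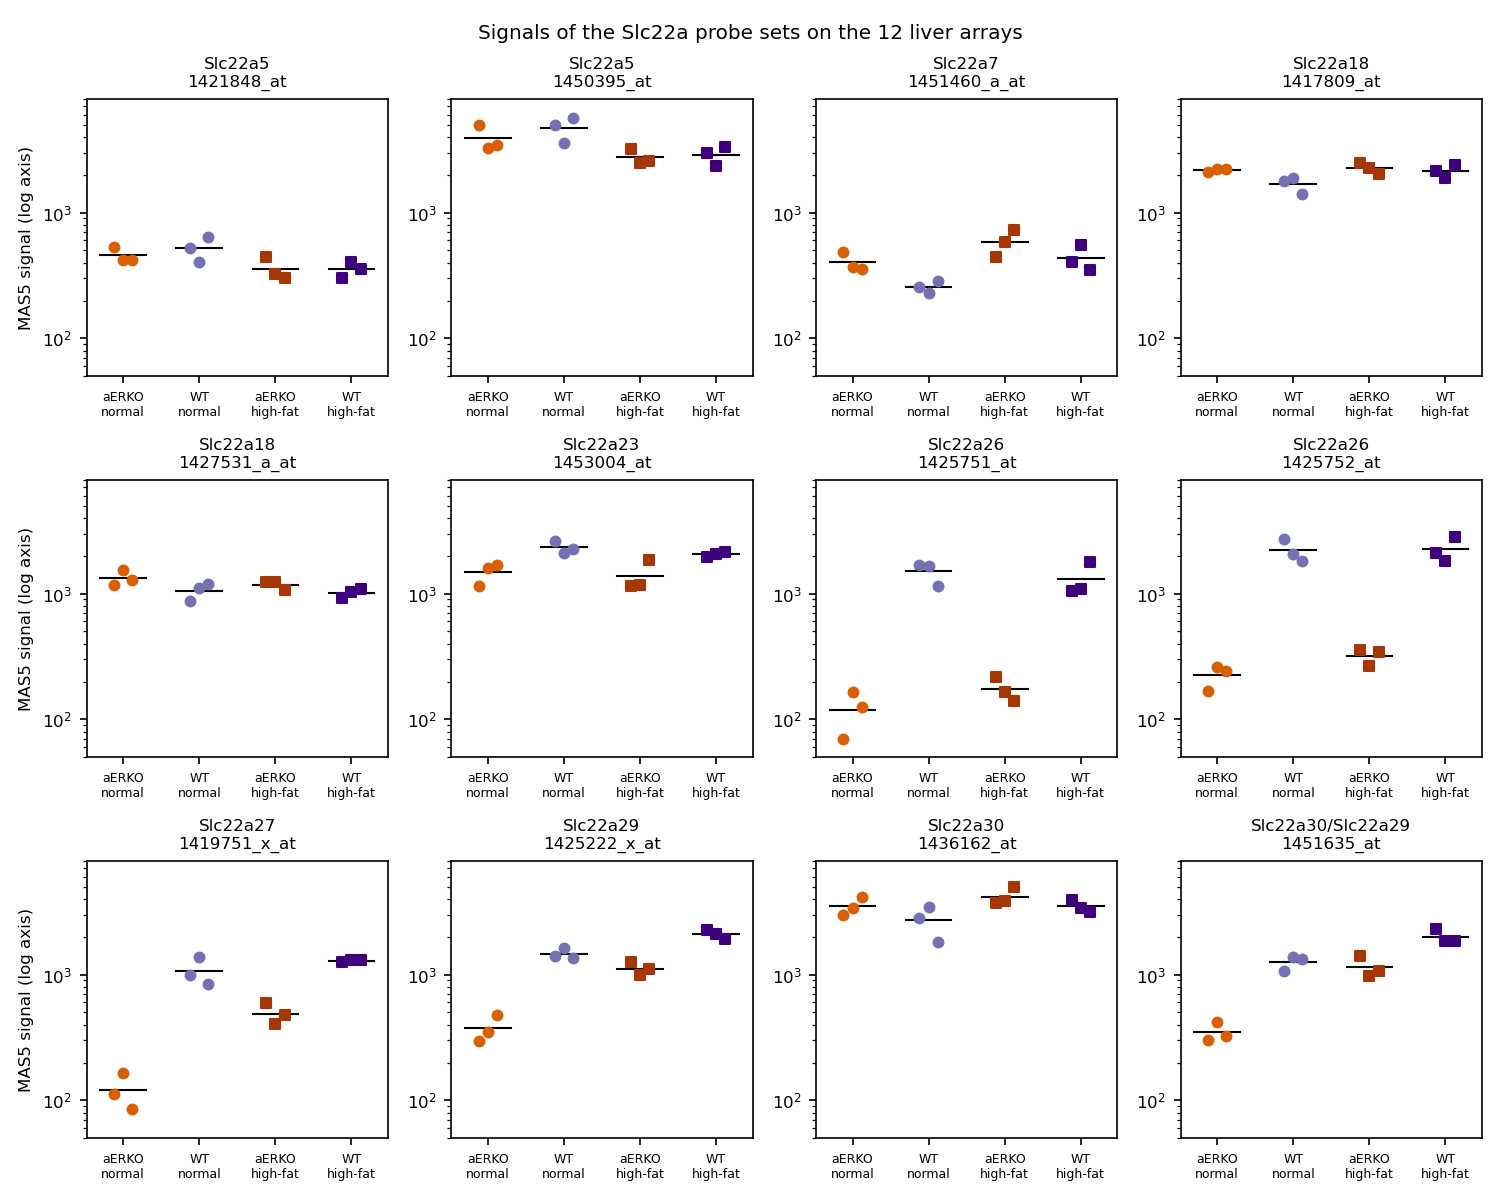
Signal of each of the 12 Slc22a probe sets (vertical log axis, MAS5 signal in arbitrary units) on each array, by group from left to right: aERKO normal, WT normal, aERKO high-fat and WT high-fat. Points are arrays and bars are group means. The aERKO points of both Slc22a26 probe sets lie between 69.4 and 358 and the WT points between 1039 and 2805, while the groups of Slc22a30 overlap.

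Slc22a26, an organic anion transporter of the chromosome 19 row, had the largest fitted differences between genotypes among the members. Its probe set 1425752_at, the first of a pair, had signals of 168, 263 and 241 in aERKO and 2729, 2080.3 and 1814 in WT on normal diet. On high-fat diet the signals were 358, 264 and 342 in aERKO and 2092, 1828 and 2805 in WT. Every aERKO array lay far below every WT array on both diets. The fitted difference was -3.21 ± 0.21 on normal diet (9.28-fold lower, limma adjusted p = 1.33e-06) and -2.73 ± 0.21 on high-fat diet (6.64-fold lower, limma adjusted p = 7.81e-06). The other one, 1425751_at, had 69.4, 164 and 126 in aERKO and 1697, 1657 and 1154 in WT on normal diet. On high-fat diet it had 216, 166 and 139.9 in aERKO and 1039, 1091 and 1793 in WT. Again no aERKO array reached a WT array, with differences of -3.53 ± 0.28 (limma adjusted p = 8.44e-06) on normal diet and -2.77 ± 0.28 (limma adjusted p = 0.000103) on high-fat diet. The annotation gives both probe sets the same source sequence, so they are not independent measurements of the gene. Without the 4 arrays with acinar transcripts, 1425752_at differed by -3.07 on normal diet and -2.66 on high-fat diet, and both probe sets were still called on both diets.

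Slc22a27, another organic anion transporter of the row, was measured by 1419751_x_at. Its signals were 113, 164 and 85.3 in aERKO and 992, 1391 and 842 in WT on normal diet. On high-fat diet they were 594, 402 and 475 in aERKO and 1264, 1297 and 1302 in WT. The aERKO arrays lay below the WT arrays on both diets, but on high-fat diet the gap was narrower. The difference was -3.01 ± 0.23 on normal diet (8.04-fold lower, limma adjusted p = 4.3e-06) and -1.38 ± 0.23 on high-fat diet (2.61-fold lower, limma adjusted p = 0.00598). With arrays centred on their median the high-fat difference was -1.26 with a limma adjusted p = 0.0660. Without the 4 arrays with acinar transcripts it was -1.36 with a limma adjusted p = 0.181, in a fit that left 1 WT high-fat array and assumed that it varied like the other groups.

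Slc22a29 lies next to Slc22a30 in the row. Its probe set 1425222_x_at gave 297, 349 and 474 in aERKO and 1407, 1619.7 and 1352 in WT on normal diet. On high-fat diet it gave 1248, 989 and 1107 in aERKO and 2259.8, 2098 and 1931 in WT. No aERKO array reached a WT array within a diet, while the aERKO arrays on high-fat diet came close to the WT arrays on normal diet. The difference was -1.94 ± 0.16 on normal diet (3.85-fold lower, limma adjusted p = 1.44e-05) and -0.90 ± 0.16 on high-fat diet (1.87-fold lower, limma adjusted p = 0.0116).

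The probe set listed for both Slc22a30 and Slc22a29, 1451635_at, had signals of 300.3, 419 and 326 in aERKO and 1072, 1383 and 1318 in WT on normal diet. On high-fat diet its signals were 1408, 978 and 1076 in aERKO and 2291, 1839 and 1838 in WT. These groups too were separate within each diet, with differences of -1.81 ± 0.17 (3.51-fold lower, limma adjusted p = 4.9e-05) on normal diet and -0.79 ± 0.17 (1.73-fold lower, limma adjusted p = 0.0417) on high-fat diet. Its source sequence in the annotation is that of the Slc22a29 probe set. Over the 12 arrays its log2 values had a Pearson correlation of 0.97 with Slc22a29 and of -0.06 with the probe set for Slc22a30 alone, a description over arrays that share their 4 groups. Without the 4 arrays with acinar transcripts, the high-fat differences were -1.02 for Slc22a29 (limma adjusted p = 0.132) and, for the shared probe set, -0.997 (limma adjusted p = 0.209). Without the 3 arrays with the highest muscle markers, the shared probe set differed by -0.68 on high-fat diet with a limma adjusted p = 0.207. Leaving out aERKO high-fat 2, WT high-fat 1 or WT high-fat 2 also ended the Slc22a29 call, at -0.82, -0.85 and -0.90 with limma adjusted p-values of 0.0798, 0.0713 and 0.0521. The shared probe set lost its call in 13 of 22 alternatives, among them leaving out any of those 3 arrays, aERKO normal 3, aERKO high-fat 3, WT normal 2 or WT high-fat 3 (limma adjusted p = 0.0505 to 0.205 over these 7), and it was not called with the replicate number as a block (limma adjusted p = 0.0710).

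Slc22a30 itself, measured by 1436162_at, was called in no comparison. Its signals were 2989.8, 3378 and 4101 in aERKO and 2823, 3432 and 1821 in WT on normal diet. On high-fat diet they were 3713, 3816 and 4958 in aERKO and 3911, 3390.2 and 3131 in WT. The genotypes overlapped on both diets. The difference was 0.41 ± 0.20 on normal diet (95% interval -0.02 to 0.84, limma adjusted p = 0.486) and 0.25 ± 0.20 on high-fat diet (95% interval -0.18 to 0.68, limma adjusted p = 0.627). Both intervals exclude a fall of the size seen in Slc22a26, Slc22a27 or Slc22a29.

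Set beside each other, with 1425752_at for Slc22a26, the genotype difference averaged over the diets was -3.30 for Slc22a26 relative to that of Slc22a30, -2.52 for Slc22a27 relative to it and -1.75 for Slc22a29 relative to it. These pairs were chosen after their values had been seen, so they are a description without a test. The signal of closely related genes can be shared by probes, and the suffix x in the Slc22a27 and Slc22a29 probe set names marks probes that may match other sequences, so these single-gene values are uncertain in that respect.

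**Figure D2:**
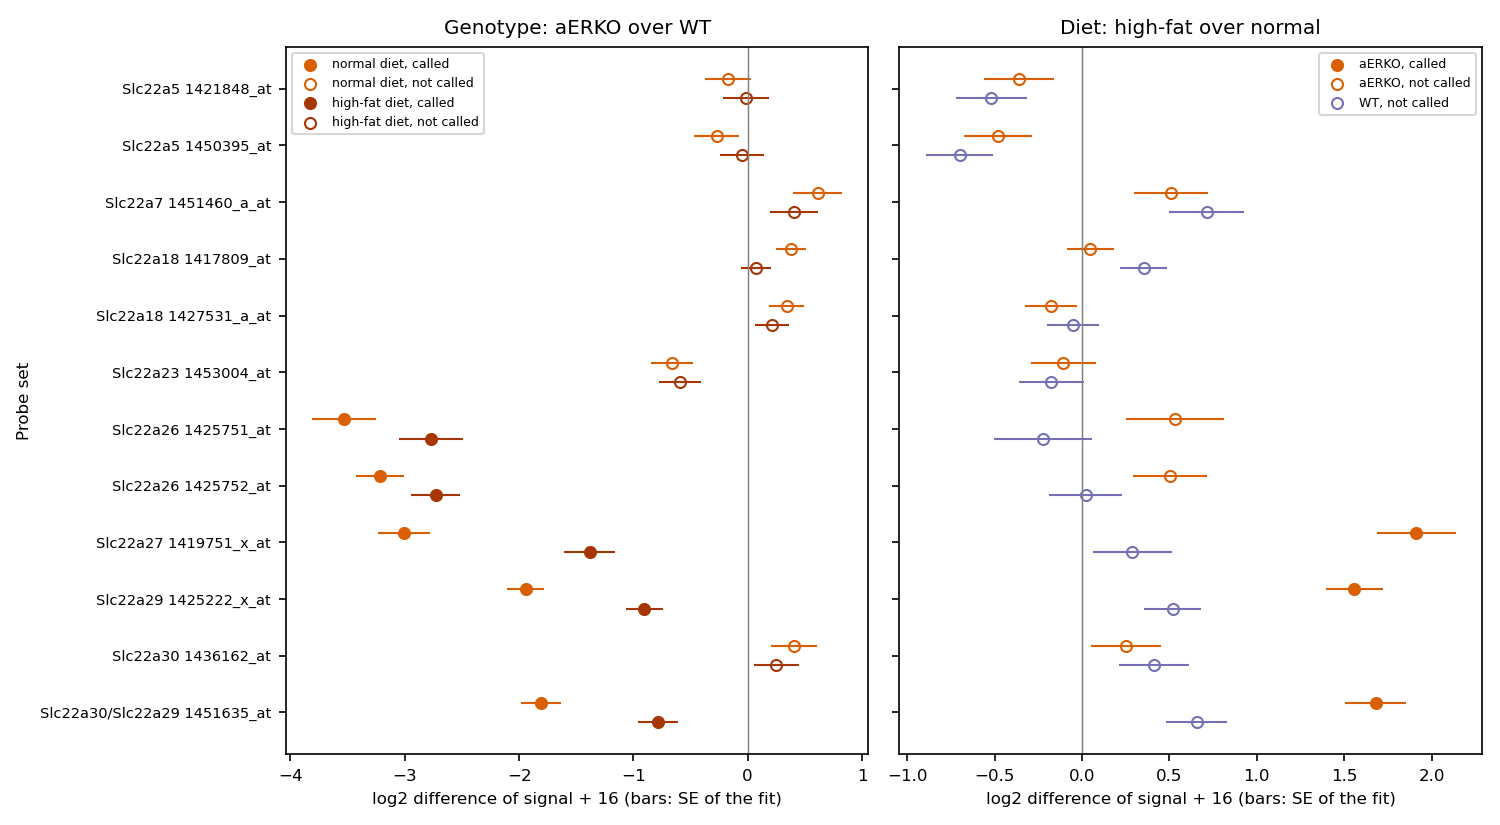
Fitted log2 difference of signal + 16 for each probe set, aERKO over WT on each diet (left) and high-fat over normal diet in each genotype (right), with bars for the standard error and filled points for calls at an adjusted p under 0.05. The 5 probe sets of Slc22a26, Slc22a27 and Slc22a29 are filled on both diets on the left, and 3 of them are filled for aERKO on the right.

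Markers of other cell types also differed in level between the genotypes. The 2 red blood cell markers with a probe set summed to 1014 to 1460 in aERKO and 276 to 403 in WT on normal diet, and to 715 to 1125 in aERKO and 208 to 384 in WT on high-fat diet. The 5 macrophage markers summed to 7314 to 10018 in aERKO and 10675 to 11289 in WT on normal diet, and to 8320.1 to 8809 in aERKO and 10441 to 13471 in WT on high-fat diet. The 7 hepatocyte markers summed to 331381 to 399893 in aERKO and 421998 to 456475 in WT on normal diet. As mean log2 values these normal-diet groups overlapped, with 15.77 in aERKO normal 1 and 15.74 in WT normal 2. On high-fat diet the hepatocyte sums were 314365 to 370128 in aERKO and 361077 to 411545 in WT, where the groups overlapped. No measured marker of these 3 lists was at 0 on any array. The 4 cholangiocyte markers, of which 0 exceeded the median on all arrays, summed to 232 to 246 in aERKO and 270 to 540 in WT on high-fat diet. On normal diet they overlapped, with 249 to 339 in aERKO and 313 to 672 in WT. The part of all these markers in the transporter differences was not tested.

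Diet was compared within each genotype. In aERKO livers, 3 of the 12 member probe sets were called higher on high-fat diet and 0 lower, while 0.118% of all probe sets were called higher and 0.063% lower. These were Slc22a27, Slc22a29 and the probe set that lists Slc22a29 with Slc22a30. In WT livers limma called 0 of the 12, while 0.0275% of all probe sets were called, and 6 of the 12 had an unadjusted p under 0.05, as had 7.54% of all. The median difference over the 12 was 0.38 in aERKO and 0.15 in WT, against -0.01 over all probe sets in each genotype. All high-fat arrays lay above all normal-diet arrays for 4 of the 12 in each genotype and below them for 1 of the 12. Over all probe sets these shares were 7.48% above and 7.58% below in aERKO, and 6.28% above and 6.75% below in WT.

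Slc22a27 in aERKO livers was 594, 402 and 475 on high-fat diet and 113, 164 and 85.3 on normal diet, a difference of 1.91 ± 0.23 (3.76-fold higher, limma adjusted p = 0.0015). In WT livers its arrays overlapped between diets, and the difference was 0.29 ± 0.23 (95% interval -0.19 to 0.77, limma adjusted p = 0.838). Slc22a29 in aERKO livers averaged 1115 ± 130 on high-fat diet and 373 ± 90.7 on normal diet (SD, n = 3 each), a difference of 1.56 ± 0.16 (2.94-fold higher, limma adjusted p = 0.000606). In WT livers the Slc22a29 arrays on high-fat diet all lay above those on normal diet, with 2096 ± 165 against 1460 ± 141 (SD, n = 3 each), but the difference of 0.52 ± 0.16 was not called (95% interval 0.17 to 0.87, limma adjusted p = 0.455). The shared probe set was higher by 1.68 ± 0.17 in aERKO on high-fat diet (3.2-fold, limma adjusted p = 0.000606), and its WT difference was 0.66 ± 0.17 (limma adjusted p = 0.349).

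Skeletal muscle markers were highest in 2 aERKO arrays on normal diet and 1 aERKO array on high-fat diet. Without these 3 arrays, Slc22a29 differed by diet in aERKO by 1.28 with a limma adjusted p = 0.100, in a fit that left 1 aERKO array on normal diet and assumed that it varied like the other groups. In that fit Slc22a27 differed by 2.43 (limma adjusted p = 0.00973) and the shared probe set by 1.87 (limma adjusted p = 0.0215).

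Slc22a26 was not called by diet in either genotype. On 1425752_at its aERKO arrays had 358, 264 and 342 on high-fat diet and 168, 263 and 241 on normal diet. They narrowly did not overlap (263.6 against 262.7), and the difference of 0.50 ± 0.21 was not called (limma adjusted p = 0.479). The WT difference on this probe set was 0.02 ± 0.21. On 1425751_at the aERKO arrays overlapped between diets, with a difference of 0.53 ± 0.28 (limma adjusted p = 0.600). The diet difference, averaged over genotypes, was larger by 0.84 in Slc22a27 and by 0.78 in Slc22a29 than in Slc22a26, a contrast also chosen after the values had been seen and not tested.

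Placed in order from low to high, the groups of Slc22a27 and Slc22a29 ran aERKO normal, aERKO high-fat, WT normal and WT high-fat. For Slc22a29, aERKO high-fat and WT normal were neighbours whose arrays did not overlap, with 989 to 1248 in aERKO high-fat and 1352 to 1619.7 in WT normal. For Slc22a27, WT high-fat and WT normal overlapped. For Slc22a26 on 1425752_at the order of the means was aERKO normal, aERKO high-fat, WT normal and WT high-fat, and the 2 WT groups overlapped. On 1425751_at WT high-fat had a lower mean than WT normal, at 1308 against 1502, and these groups also overlapped. For the shared probe set aERKO high-fat and WT normal overlapped.

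The difference of differences asks whether diet acted unequally in the 2 genotypes. It was the diet difference in aERKO minus that in WT, and limma called 0 of the 12 members and 0 of all 25412 probe sets. At an unadjusted p under 0.05 were 3 of the 12 and 5.45% of all. The largest value among the members was 1.62 ± 0.32 for Slc22a27 (95% interval 0.94 to 2.31, limma adjusted p = 0.351). Slc22a29 had 1.04 ± 0.23 (95% interval 0.54 to 1.53, limma adjusted p = 0.469), and the shared probe set had 1.02 ± 0.25 (limma adjusted p = 0.573). The larger diet difference in aERKO than in WT therefore did not pass the threshold for any of these genes. The median over the members was 0.19, against -0.01 over all probe sets.

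**Figure D3:**
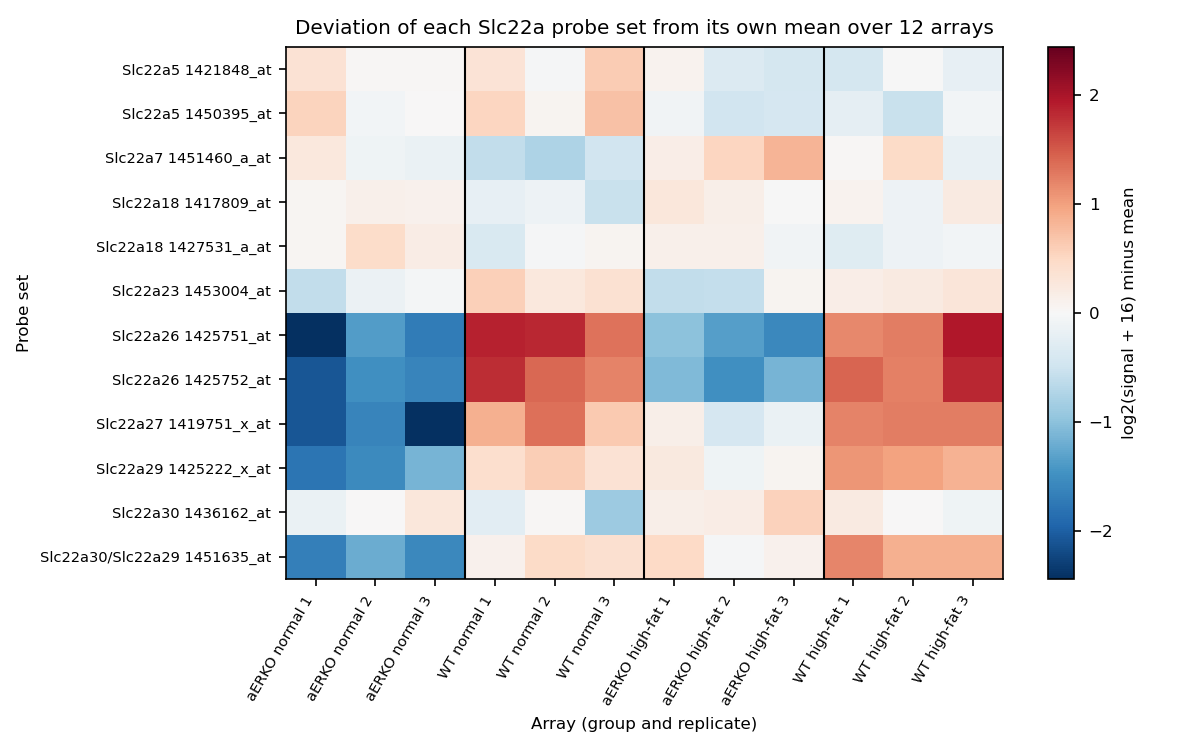
Deviation of log2(signal + 16) on each array (columns, grouped as aERKO normal, WT normal, aERKO high-fat and WT high-fat) from the mean of the same probe set over the 12 arrays (rows), red above and blue below the mean. The rows of Slc22a26 are blue in all 6 aERKO arrays and red in all 6 WT arrays, and those of Slc22a27 and Slc22a29 are darkest blue in aERKO normal.

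Slc22a7, which encodes the organic anion transporter OAT2 of the hepatocyte's blood-facing membrane, had 484, 371 and 356 in aERKO and 256, 229 and 286 in WT on normal diet. On high-fat diet it had 447, 586 and 725 in aERKO and 408, 555 and 349.9 in WT. The genotypes were separate on normal diet and overlapped on high-fat diet. Neither difference was called, at 0.61 ± 0.21 on normal diet (95% interval 0.16 to 1.07, limma adjusted p = 0.29) and 0.41 ± 0.21 on high-fat diet (limma adjusted p = 0.425). In WT livers the arrays on high-fat diet lay above those on normal diet, with a difference of 0.71 ± 0.21 that was not called (limma adjusted p = 0.426).

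Slc22a23, an orphan member of the family whose substrates are not well known, had signals of 1145, 1589.6 and 1701 in aERKO and 2636, 2088 and 2254 in WT on normal diet. On high-fat diet it had 1151, 1169 and 1835 in aERKO and 1953, 2044 and 2147 in WT. Every aERKO array lay below every WT array on each diet, and neither difference was called, at -0.66 ± 0.19 on normal diet (95% interval -1.06 to -0.27, limma adjusted p = 0.163) and -0.59 ± 0.19 on high-fat diet (limma adjusted p = 0.15). Without aERKO high-fat 3, the sample nearest to WT, the high-fat difference was -0.81 with a limma adjusted p = 0.0264. In the other 22 alternatives it was not called. Separation of groups is common on this array: 8.73% of all probe sets on normal diet and 12.1% on high-fat diet had all aERKO arrays below all WT arrays, as had 6 of the 12 members on each diet. In the other direction it was 5.88% of all on normal diet and 8.65% on high-fat diet, against 2 and 0 of the 12 members.

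Slc22a5 encodes OCTN2, the sodium-coupled carnitine transporter. Its probe set 1450395_at had 3223, 2487 and 2576 in aERKO on high-fat diet and 4991, 3272 and 3449 in aERKO on normal diet. In WT livers it had 2961, 2360.4 and 3289.6 on high-fat diet and 4940.3, 3580.3 and 5621 on normal diet. In each genotype the high-fat arrays lay below the normal-diet arrays, and neither difference was called, at -0.48 ± 0.19 in aERKO (limma adjusted p = 0.455) and -0.70 ± 0.19 in WT (limma adjusted p = 0.373). Between genotypes the arrays overlapped on both diets, with differences of -0.27 ± 0.19 on normal diet (limma adjusted p = 0.657) and -0.05 ± 0.19 on high-fat diet (limma adjusted p = 0.938), which had the opposite sign with arrays centred on their median. The other Slc22a5 probe set, 1421848_at, spanned 303 to 641 over the 12 arrays and had diet differences of -0.36 ± 0.20 in aERKO (limma adjusted p = 0.63) and -0.52 ± 0.20 in WT (limma adjusted p = 0.555). Genes of carnitine synthesis and use were taken beside it. Of that list, 9 of 10 genes had a probe set and 19 of 21 probe sets were tested, and limma called 0 in any of the 5 comparisons. At an unadjusted p under 0.05 there were 3 for genotype on each diet, 3 for diet in aERKO, 1 for diet in WT and 1 for the difference of differences. Over all probe sets such a p was reached by 10.9% for genotype on normal diet, 13.9% on high-fat diet, 9.26% for diet in aERKO, 7.54% for diet in WT and 5.45% for the difference of differences. The list's median was 0.0510 by diet in aERKO and -0.0490 in WT, against -0.01 over all probe sets in each.

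Slc22a18 lies in an imprinted region and encodes an orphan transporter. Its probe set 1417809_at had 2097, 2219.6 and 2203 in aERKO and 1769, 1876 and 1393 in WT on normal diet, with no overlap. On high-fat diet it had 2460.3, 2251 and 2036 in aERKO and 2158, 1882 and 2380.1 in WT, which overlapped. The differences were 0.38 ± 0.13 on normal diet (limma adjusted p = 0.3) and 0.07 ± 0.13 on high-fat diet (limma adjusted p = 0.861). The other probe set, 1427531_a_at, spanned 873 to 1544 over the 12 arrays and differed by 0.34 ± 0.15 on normal diet (limma adjusted p = 0.427) and 0.21 ± 0.15 on high-fat diet (limma adjusted p = 0.576). The log2 values of the Slc22a18 probe sets had a Pearson correlation of 0.27 over the 12 arrays, and those of Slc22a5 of 0.86.

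For the remaining genes of the family, 13 of 16 had a probe set. Only 6 of their 17 probe sets passed the filter on low values, those of Slc22a4, Slc22a12, Slc22a13, Slc22a15 and Slc22a17, and limma called 0 of these 6 in any comparison, with 0 at an unadjusted p under 0.05. The neighbours of the chromosome 19 row, Slc22a19, Slc22a8 and Slc22a6, were below the array's median on all 12 arrays. Slc22a8 and Slc22a6 encode the organic anion transporters OAT3 and OAT1, best known from the kidney.

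Other hepatocyte transporters were measured for comparison, with 21 of 24 probe sets of 15 genes tested. On normal diet 3 probe sets were called higher in aERKO and 0 lower: both of Slco1a1, an organic anion uptake carrier that is male-biased in mouse liver (5.75 ± 0.81, limma adjusted p = 0.00198, and 4.15 ± 0.62, limma adjusted p = 0.00341), and that of Abcg2, an efflux pump (0.93 ± 0.12, limma adjusted p = 0.0006). On high-fat diet 2 of the 21 were called higher in aERKO and 2 lower, with 0.728% of all called higher and 0.559% lower. Those higher were Abcg2 (1.24 ± 0.12, limma adjusted p = 5.88e-05) and 1 Slco1a1 probe set (2.81 ± 0.62, limma adjusted p = 0.0419). There Slco1a4, an organic anion uptake carrier (-0.82 ± 0.18, limma adjusted p = 0.0362), and Abcb1a, an efflux pump (-0.93 ± 0.17, limma adjusted p = 0.0145), were called lower. Their normal-diet differences were of similar size and not called, at -0.82 ± 0.18 for Slco1a4 and -0.80 ± 0.17 for the same Abcb1a probe set (limma adjusted p = 0.0529 each). The other Abcb1a probe set was called on neither diet, at -0.92 ± 0.24 on normal diet and -0.54 ± 0.24 on high-fat diet, and the other Slco1a1 probe set differed by 3.34 ± 0.81 on high-fat diet (limma adjusted p = 0.0622). By diet, limma called 0 of the 21 in either genotype, with 4 at an unadjusted p under 0.05 in aERKO and 5 in WT, where 9.26% and 7.54% of all probe sets were at such a p. For genotype, 11 of the 21 had an unadjusted p under 0.05 on normal diet and 9 on high-fat diet, against 10.9% and 13.9% of all. The median of the 21 for genotype was 0.00469 on normal diet and -0.21 on high-fat diet, against -0.05 over all probe sets on each diet.

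Among receptors and transcription factors that act on these genes or on sex-biased liver genes, 27 of 28 probe sets of 12 genes were tested. Those called lower in aERKO were 3 on normal diet and 4 on high-fat diet, with 0 higher on either. Of all probe sets, 0.346% were called lower and 0.331% higher on normal diet, and 0.559% lower and 0.728% higher on high-fat diet. The median of the 27 was -0.0297 on normal diet and -0.18 on high-fat diet, against -0.05 over all probe sets on each diet. The called probe sets belonged to Esr1, which is the gene disrupted in aERKO, and to Cux2. A further Esr1 probe set, 1421244_at, was not among those called. On normal diet a Cux2 probe set had 19.6, 64.9 and 212 in aERKO and 838, 633 and 693 in WT, a difference of -3.08 ± 0.47, and on high-fat diet it differed by -3.34 ± 0.47. A second Cux2 probe set differed by -1.36 ± 0.32 on normal diet, which was not called (limma adjusted p = 0.0795), and by -1.55 ± 0.32 on high-fat diet, which was (limma adjusted p = 0.0270). A further one, 1447821_at, differed by 0.02 on normal diet and 0.05 on high-fat diet and was not called.

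As a description, probe sets with 1 symbol outside Slc22a were ranked by Pearson correlation of log2 values with a member over the 12 arrays. The 5 highest genes are given for each member. For Slc22a26 they were Cyp2b13 (0.97), Cyp3a44 (0.97), St3gal6 (0.97), Acot4 (0.97) and Ccnd1 (0.97). For Slc22a27 they were Hao2 (0.98), Tafa2 (0.96), Rtn4 (0.96), Hamp2 (0.95) and Cyp17a1 (0.94). For Slc22a29 they were Oas1a (0.97), Cyp2b9 (0.94), Pdzk1 (0.94), Tafa2 (0.93) and Abcb1a (0.92). Slc22a30 had a different set, with Ulk2 (0.94), Siae (0.92), D3Ertd751e (0.92), Galm (0.92) and Stau1 (0.91). Member probe sets were left out of that ranking, and some were closer to each other than to the genes listed. The Slc22a26 probe sets correlated at 0.991, and Slc22a29 correlated with the shared probe set at 0.975. Slc22a27 correlated with Slc22a29 at 0.96 and with Slc22a26 at 0.89, and Slc22a23 correlated with Slc22a26 at 0.84. All of these arrays fall into the same 4 groups, which the correlations share.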

How the data were processed

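Total RNA from 12 liver samples was hybridised to 1-colour Affymetrix arrays. Per the submitters' processing notes, the authors deposited 1 intensity per probe set and array from Affymetrix Expression Console with MAS5. Their versions are not recorded in these sources. MAS5 treats each array separately, so low signals scatter widely on a log scale. Array medians were 75.6 to 114, the number of arrays limits the precision, and 0 pairs of arrays were identical. Of 45101 probe sets, the platform annotation gave 1 symbol to 34958, several to 932, and did not list 9211.

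Groups came from the labels. Values were log2(signal + 16). One linear model with a mean per group was fitted in R 4.3.3 with limma 3.58.1 to the 25412 probe sets above the array median on at least 3 arrays (8 residual and 6.26 prior degrees of freedom, intensity trend). Two-sided p-values were adjusted by the Benjamini-Hochberg method over all 25412, with a threshold of 0.05. Probe sets rather than genes were fitted because 1 member probe set lists 2 genes. Tested on simulated data of the normal-diet genotype comparison, with 200 of 25412 probe sets changed, limma recovered 40% at a log2 change of 1 and 82% at a log2 change of 2. The simulated noise was normal and independent between probe sets, without the acinar and muscle signals that some arrays share. Recovery in the real data may therefore differ. Promoters were aligned with Biopython 1.88.

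The members and lists were chosen with earlier results of these data known. Every member probe set is named, and list genes are named where called. The 5 probe sets most like each member of the chromosome 19 row were taken by correlation. Alternatives changed the pseudocount, filter, scaling, variance trend, samples, replicate block and probe set choice.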

Additional observations from a re-analysis of the deposited data

How the results depend on the processing

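Under 23 alternatives, the 5 calls on normal diet and both Slc22a26 calls on high-fat diet passed wherever the probe set was tested. The fit without the acinar arrays left 1 WT high-fat array, and that without the muscle arrays left 1 aERKO normal array. The normal-diet genotype count of 5 became 3 with 1 probe set per gene, which tests fewer probe sets. The high-fat genotype count of 5 became 2 with arrays centred on their median, 3 without the variance trend, 3 with 1 probe set per gene and 2 without the 4 arrays with acinar transcripts. Leaving out 1 array in turn gave 3 to 5, with 3 without aERKO high-fat 2, WT high-fat 1 or WT high-fat 2. Beyond fewer probe sets or arrays, the cause was not tested. The high-fat genotype call was lost for Slc22a27 in 2 of 23 alternatives, for Slc22a29 in 6 of 23 and for the shared probe set in 13 of 22. Diet counts were 3 in aERKO and 0 in WT, except 2 in aERKO without the 3 arrays with muscle transcripts and with 1 probe set per gene. Over all probe sets, alternatives other than leaving out 1 array gave 47 to 178 calls (172 as reported) for genotype on normal diet, 74 to 362 (327) on high-fat diet, 9 to 59 (46) for diet in aERKO and 0 to 13 (7) in WT. Leaving out 1 array gave 116 to 184, 139 to 462, 17 to 56 and 0 to 22 for these comparisons in the same order, and 1 call for the difference of differences without aERKO high-fat 3, against 0 otherwise. Median centring shifted the median of all probe sets by 0.16 for genotype on normal diet and by 0.11 on high-fat diet. With it, 59.8% of calls were higher in aERKO on normal diet instead of 48.8%, and 80.0% were higher on high-fat diet in aERKO livers instead of 65.2%.

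Values that changed sign were all uncalled. For genotype on high-fat diet, Slc22a5 1421848_at was 0.10 with median centring, 0.0609 with quantile normalization, 0.20 without the arrays with acinar transcripts and 0.0462 without those with muscle transcripts, and -0.17 to 0.0863 with 1 array left out. Slc22a5 1450395_at was 0.0686 with median centring, 0.0189 without the muscle arrays and -0.18 to 0.0531 with 1 array left out. With 1 array left out, Slc22a18 1417809_at ranged from -0.0152 to 0.15 there, and from -0.0208 to 0.11 by diet in aERKO. By diet in WT, Slc22a18 1427531_a_at was 0.00761 with median centring and -0.18 to 0.0391 with 1 array left out, and Slc22a26 1425752_at was -0.0886 without the acinar arrays and -0.15 to 0.18 with 1 array left out. Slc22a23 by diet in aERKO ranged from -0.33 to 0.00734 with 1 array left out. The difference of differences was 0.0765 for Slc22a7 without the acinar arrays, -0.0475 for Slc22a23 without the muscle arrays and, with 1 array left out, -0.15 to 0.18 for Slc22a23 and -0.35 to 0.10 for Slc22a30.

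With the replicate block, 5 member probe sets were called for genotype on normal diet, 4 on high-fat diet, 3 for diet in aERKO and 0 in WT. Same-numbered samples deviated together with correlations of -0.16 to 0.21, and not over 0.1 in every pair of any comparison. Such correlations cannot exclude a shared origin behind the numbers, which the labels do not state. The main fit did not pair the samples by number.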
